A study of Mus musculus with 8 samples.

Results

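A4gnt, Gprc5b, Clstn3 and Pnldc1 stood among the 12 largest falls in mouse livers labelled as a Huwe1 knockout, in which 66.9% of the WT Huwe1 level was still measured, and code for no classical enzyme of lipid metabolism. All 4 of 4 were matched by symbol among the 16640 genes of the authors' deposited table. They were picked for their large fall in that same comparison, so their own levels and fold changes are a description and carry no test. Whole livers of 8 mice aged 1 year and kept on chow were sequenced in bulk. The Huwe1_LKO group held 4 livers with a liver-specific knockout of Huwe1, which encodes a HECT-type ubiquitin ligase, and the WT group held 4 livers with intact Huwe1. The Cre driver, the deleted exons, sex and litter were not given in the sources used here, so whether sex or litter differed between the groups is not known. The deposited p-values weigh the difference between the groups against the spread among livers within a group. The authors' deposited table gives 1 normalized value per gene and group, so the values below are group values and not values of single livers.

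The 4 genes are known for unrelated tasks. A4gnt encodes a Golgi glycosyltransferase that caps the O-linked sugar chains of stomach gland mucins with an alpha-linked N-acetylglucosamine. Gprc5b encodes an orphan class C G protein-coupled receptor of a retinoic acid-inducible family, which sits in membrane rafts and in mouse fat tissue binds the kinase Fyn. Clstn3 encodes calsyntenin 3, a cadherin-type membrane protein of synapses that binds neurexins, and in mouse adipocytes the same locus makes Clstn3b, a protein of the endoplasmic reticulum at the surface of lipid droplets. Pnldc1 encodes an exonuclease that trims the ends of piRNAs, the small RNAs that silence transposons in mouse germ cells. In the annotation that the authors deposited, a term carried by all 4 was "integral component of membrane", which 20.7% of all genes and 23.6% of the genes that fell also carried. No other term was carried by more than 2 of them.

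The start regions of 3 of the 4 genes are shown as a description, and they differ in base composition. Each run covers 250 bases before and 20 bases after an annotated start (RefSeq, GRCm38.p6, the assembly known as mm10), read 5′ to 3′ on the gene's own strand, and RefSeq entries matched 3 of the 4 genes, with Clstn3 having 2 starts. The A4gnt window lies at the start of its GENCODE M21 transcript, at 99612502. RefSeq begins the A4gnt gene body further upstream, at 99591179, and no window of that start is shown. Capitals mark matches on either strand to 9 motifs.
A4gnt, chr9:99612252-99612521, plus strand: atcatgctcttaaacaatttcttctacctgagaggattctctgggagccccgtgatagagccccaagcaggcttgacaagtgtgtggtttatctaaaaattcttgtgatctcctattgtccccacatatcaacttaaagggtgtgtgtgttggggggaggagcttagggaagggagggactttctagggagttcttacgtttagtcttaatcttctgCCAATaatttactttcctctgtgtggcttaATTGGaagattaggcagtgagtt
Gprc5b, chr7:118995192-118995461, minus strand: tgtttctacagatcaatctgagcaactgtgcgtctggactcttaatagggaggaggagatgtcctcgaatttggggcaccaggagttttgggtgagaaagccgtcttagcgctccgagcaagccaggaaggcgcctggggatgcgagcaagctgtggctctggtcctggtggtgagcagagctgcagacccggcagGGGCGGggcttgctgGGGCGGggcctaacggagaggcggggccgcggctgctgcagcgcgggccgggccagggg
Clstn3 distal start, chr6:124464765-124465034, minus strand: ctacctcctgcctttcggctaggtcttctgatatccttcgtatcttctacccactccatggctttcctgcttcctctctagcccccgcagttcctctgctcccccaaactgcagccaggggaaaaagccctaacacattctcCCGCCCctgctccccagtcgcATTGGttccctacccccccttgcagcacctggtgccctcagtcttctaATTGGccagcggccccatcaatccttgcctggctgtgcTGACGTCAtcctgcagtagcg
Clstn3 proximal start, chr6:124462725-124462994, minus strand: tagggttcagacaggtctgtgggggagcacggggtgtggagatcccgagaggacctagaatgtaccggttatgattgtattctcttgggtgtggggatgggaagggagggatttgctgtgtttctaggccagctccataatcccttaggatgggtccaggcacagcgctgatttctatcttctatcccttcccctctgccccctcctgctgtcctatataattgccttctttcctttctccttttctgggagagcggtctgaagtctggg

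The motifs searched were the cyclic AMP element TGACGTCA, the GC box GGGCGG, the CCAAT box CCAAT, the TATA box TATAAA, the E-box CACGTG, the sterol element TCACNCCAC, the nuclear receptor core site AGGTCA, and its tandem repeats AGGTCANAGGTCA (the PPAR type) and AGGTCANNNNAGGTCA (the LXR type), which both contain that core site. The A4gnt window held 2 CpG dinucleotides and 43.7% G plus C, against medians of 6 and 52.6% over 32851 windows of the same length. The Gprc5b window held 17 CpG and 64.4% G plus C, with 2 GC boxes, a motif found in 34.1% of all windows. The distal Clstn3 window held 8 CpG, 2 CCAAT boxes (in 35.4% of all windows) and 1 GC box. It also held 1 cyclic AMP element across the RefSeq start itself, a motif that 1.73% of all windows held. GENCODE M21 begins transcript Clstn3-201 at 124464794, upstream of the RefSeq start at 124464784, and by that start the element lies inside the transcript. The A4gnt window held 2 CCAAT boxes, and the proximal Clstn3 window held none of the motifs as exact strings. The core site, found in 14.96% of all windows, the E-box (6.57%) and the exact string TATAAA (12.9%) were in none of the 4 windows. The sterol element (1.14%) and the PPAR-type and LXR-type repeats (0.0335% and 0.0152%) were absent too. Close variants of a motif were not searched, such as the tatataa in the proximal Clstn3 window, so absence of a TATA box there was not shown. The shared fall was thus seen in windows poor and rich in CpG, and no motif of the search was present in all 4.

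A4gnt (Entrez ID 333424; chromosome 9, 99591179 to 99622367 in GRCm38) was nearly lost. The authors' deposited table gave it 5.03 normalized reads in Huwe1_LKO livers, against 109 normalized reads in WT livers. The knockout group thus kept 4.61% of the WT level, and the deposited log2 fold change was -4.44. Every error below is the standard error that the deposited p implies, and here it was 0.49 on the log2 scale, a 95% interval of 2.36% to 9.003% of the WT level. Over 4 livers each, the group values scale to 20.1 normalized reads in Huwe1_LKO and 436 in WT, so the low side rests on few reads. These are no counted totals, since the deposited folds appear shrunken toward 0 and equal the ratio of the group values. The share of the WT level that was left, here and for the other 3 genes, may thus be overstated. In order of the deposited log2 fold change A4gnt ranked 2 from the bottom, after the lipid droplet gene Cidea (-5.03) and before the desaturase Scd1 (-3.21). GENCODE M21 gives the gene 1 transcript of 3 exons and 2757 bases, the length that the authors deposited.

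Gprc5b (Entrez ID 64297; chromosome 7, 118972040 to 118995211) had 21.98 normalized reads in Huwe1_LKO and 185 in WT per the authors' deposited table. This left 11.9% of the WT level, with an implied interval of 7.82% to 18.0%, and a log2 fold change of -3.08 (implied standard error 0.31). Its last 81 bases overlap the gene Iqck, which had 2.95 normalized reads in Huwe1_LKO and 4.76 in WT per the authors' deposited table. Whether the counting used strand was not given in the sources used here, so reads of that shared stretch could belong to either gene.

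Clstn3 (Entrez ID 232370; chromosome 6, 124430756 to 124464784) had the highest level of the 4, also per length. The authors' deposited table gave 127 normalized reads in Huwe1_LKO and 919 in WT. The knockout level was 13.8% of WT (implied interval 10.1% to 18.9%), a log2 fold change of -2.86 with an implied standard error of 0.23. GENCODE M21 lists 7 transcripts for the locus, 3 of them protein-coding, and RefSeq gives Clstn3b as another name of the same gene. One value per gene was deposited, so the neuronal-type transcripts and Clstn3b cannot be told apart in these values.

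Pnldc1 (Entrez ID 240023; chromosome 17, 12888723 to 12910580) had 28.5 normalized reads in Huwe1_LKO and 154 in WT per the authors' deposited table, so 18.5% of the WT level was left (implied interval 11.2% to 30.6%). The log2 fold change was -2.44 and its implied standard error 0.37, per the authors' deposited table. GENCODE M21 lists 7 transcripts, of which 2 are protein-coding and 4 are marked for nonsense-mediated decay.

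**Figure D1:**
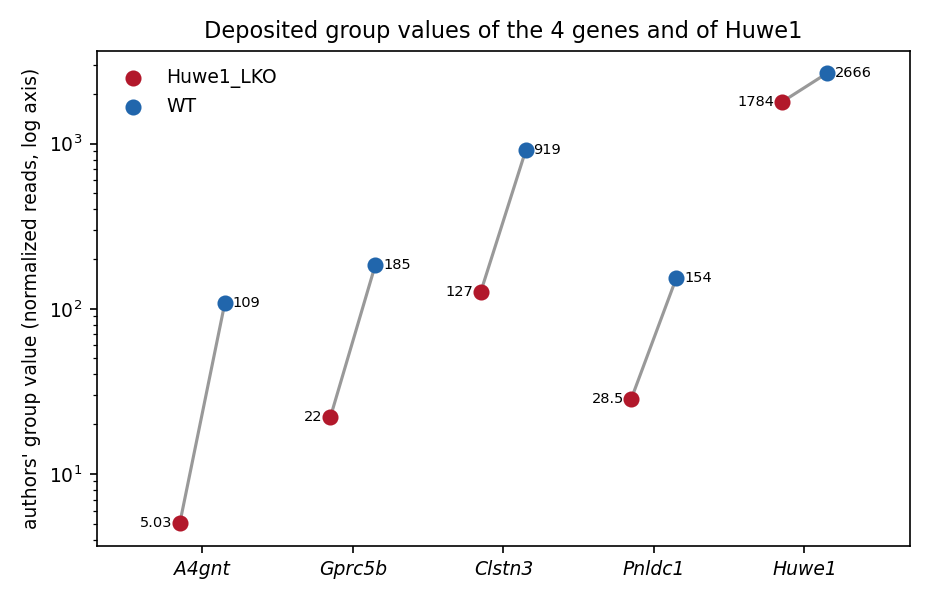
Group values of the 4 genes and of Huwe1 per the authors' deposited table, in normalized reads on a log axis, with Huwe1_LKO (red) left of WT (blue), 1 value per group and no error bar. A4gnt has the steepest line, at 5.03 in Huwe1_LKO and 109 in WT, and Huwe1 the flattest, at 1784 and 2666.

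The adjusted p-values of the 4 genes, per the authors' deposited table, lay between 2.77e-31 for Clstn3 and 8.16e-09 for Pnldc1. All 4 were called lower at an adjusted p under 0.05, where 5.56% of all genes were called lower and 4.41% higher, and since this contrast chose them the count has no weight of its own. Huwe1 itself kept 66.9% of the WT level (implied interval 55.9% to 80.1%), with 1784 normalized reads in Huwe1_LKO and 2666 in WT per the authors' deposited table (a log2 change of -0.58 with an implied standard error of 0.13). Among 8742 genes with a WT value of 100 or more per the authors' deposited table, 14 had less than 20% of it in Huwe1_LKO, these 4 included, and 2 had less than 5%, A4gnt and Cidea. In whole liver, fewer cells of a type and less RNA per cell cannot be told apart.

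**Figure D2:**
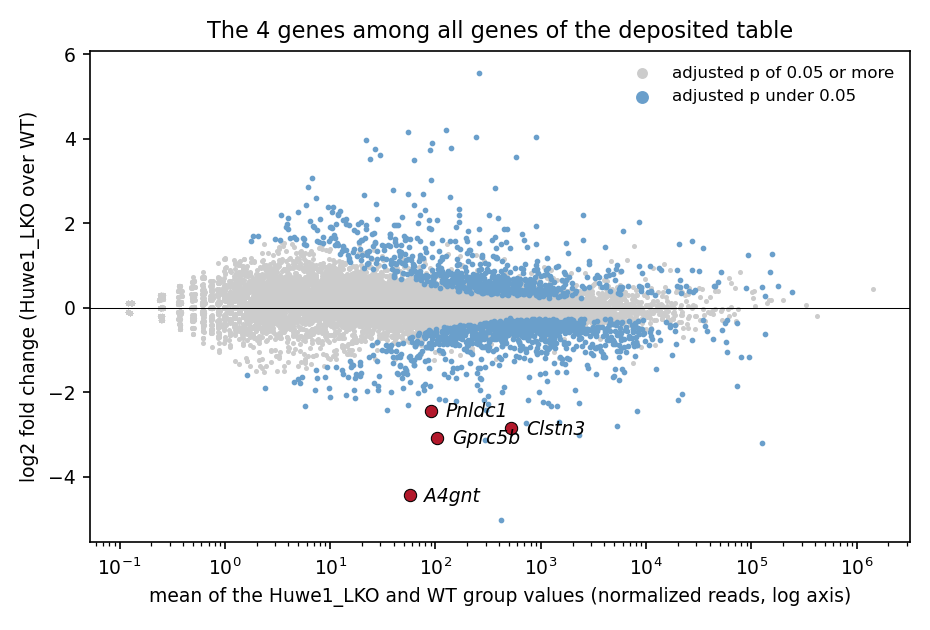
Log2 fold change of Huwe1_LKO over WT against the mean of both group values (log axis) for all 16640 genes of the authors' deposited table, in blue where the adjusted p was under 0.05. The 4 genes (red) lie at the lower edge of the cloud, between -4.44 and -2.44.

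Divided by the deposited gene length and scaled to a sum of 1000000 per group, the 4 genes lay between percentiles 21.1 and 47.5 of all genes in Huwe1_LKO and between 50.5 and 80.2 in WT. Clstn3 had a level of 3.27 in Huwe1_LKO and 23.6 in WT on this per-length scale, at percentile 47.5 of all genes in Huwe1_LKO and 80.2 in WT. Pnldc1 had a per-length level of 1.64 in Huwe1_LKO and 8.84 in WT, at percentile 39.1 in Huwe1_LKO and 64.2 in WT. The per-length level of Gprc5b was 0.471 in Huwe1_LKO and 3.96 in WT. For A4gnt the same scale gave 0.177 in Huwe1_LKO and 3.83 in WT. A4gnt and Gprc5b were thus at percentiles 21.1 and 27.8 in Huwe1_LKO livers, and at the nearly equal percentiles 50.5 and 51.0 in WT livers.

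The nearest relatives of the 4 genes were not called, and several had values on the other side of 0. A4galt, a related enzyme that adds an alpha-linked galactose to glycolipids, had 8.88 normalized reads in Huwe1_LKO and 6.75 in WT per the authors' deposited table (a log2 change of 0.40 with an implied standard error of 0.48, adjusted p = 0.764 by DESeq2). The calsyntenins Clstn1 (log2 fold change 0.30, adjusted p = 0.677) and Clstn2 (-0.05, adjusted p = 0.985) did not pass per the authors' deposited table. Per length, Clstn3 made up 63.6% of the summed calsyntenin level in Huwe1_LKO and 93.8% in WT. Gprc5c, the Gprc5 gene with the highest per-length level, had 1426 normalized reads in Huwe1_LKO and 1148 in WT (log2 fold change 0.31, adjusted p = 0.197, not passing), per the authors' deposited table. Gprc5b made up 1.29% of the family's per-length level in Huwe1_LKO and 12.1% in WT. Gprc5a and Gprc5d had low values, at 5.01 and 0.244 normalized reads in Huwe1_LKO and 3.01 and 0.245 in WT per the authors' deposited table. The deadenylase Parn (log2 fold change -0.21, adjusted p = 0.547) and the exonuclease Toe1 (0.21, adjusted p = 0.544) did not pass per the authors' deposited table. A difference in fold change between each gene and its relatives was not tested, since the genes were chosen for theirs.

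**Figure D3:**
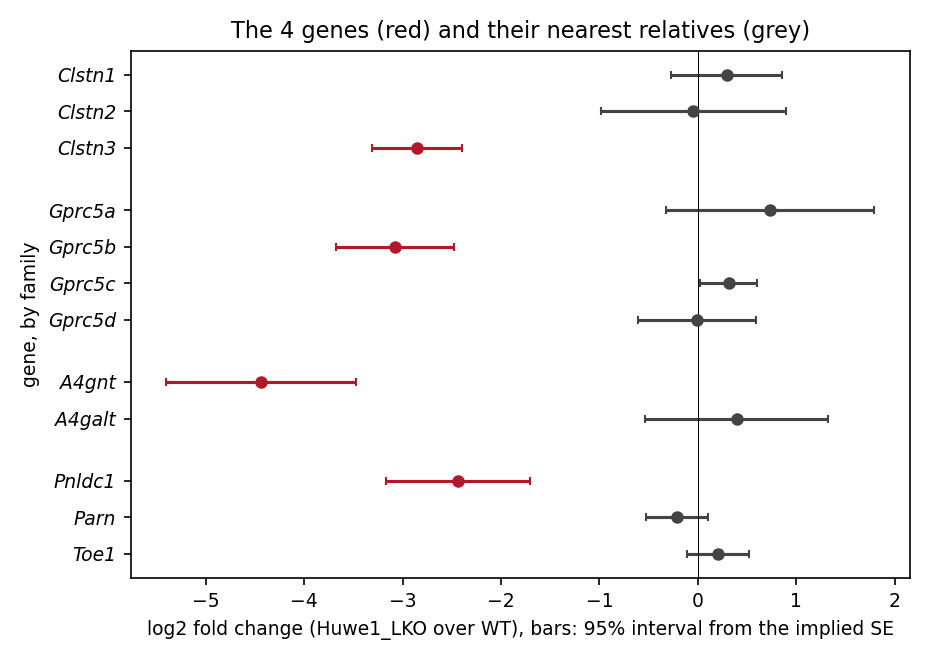
Log2 fold change of Huwe1_LKO over WT for the 4 genes (red) and their relatives (grey) from the authors' deposited table, grouped by family, with 95% intervals from the implied standard error. The red points lie between -4.44 and -2.44, and the grey points between -0.21 for Parn and 0.73 for Gprc5a.

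Around A4gnt, enzymes that build mucin-type sugar chains and the mucins were compared. Of 31 matched glycan enzymes, 2 were called higher and 1 lower per the authors' deposited table, 9.68% in all, where 9.97% of all genes were called in either direction. Gcnt4, an enzyme that makes the core branch that A4gnt extends, rose to 91.2 normalized reads in Huwe1_LKO, against 50.2 in WT (log2 fold change 0.86, adjusted p = 0.0239), per the authors' deposited table. Gcnt1, Gcnt2 and Gcnt3 of the same list had 10.3, 344 and 0.365 normalized reads in Huwe1_LKO. Their WT values were 10.1, 369 and 0.400, and they did not pass per the authors' deposited table. The sialyltransferase St3gal2 rose (0.67, adjusted p = 0.0471) and Galnt2, which starts the chains, fell (-0.42, adjusted p = 0.0222), as log2 fold changes per the authors' deposited table, and the call of Galnt2 was lost when the 2080 most abundant genes were centred at 0 (adjusted p = 0.0853). The list had a median log2 fold change of 0.02, the same as all genes (0.02). Of 14 mucins 7 were matched, and DESeq2 called 0 of them per the authors' deposited table, with 0 at an unadjusted p under 0.05. Muc6, the stomach gland mucin that carries the A4gnt sugar, had 0.133 normalized reads in Huwe1_LKO and 0.123 in WT per the authors' deposited table, at the level of a single read in all 8 livers. Of 8 markers of stomach mucous cells 3 were matched, and they summed to 3.31 normalized reads in Huwe1_LKO and 2.46 in WT, below the level of A4gnt alone in either group.

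Around Gprc5b, no other class C receptor was called. Of 18 matched, 0 passed by DESeq2 per the authors' deposited table, with 1 at an unadjusted p under 0.05, and 14 had a mean value under 10. The GABA receptor subunit Gabbr2 had 173 normalized reads in Huwe1_LKO and 253 in WT and did not pass (adjusted p = 0.374 per the authors' deposited table). Retinoid genes were called in both directions. Their list, like all lists here, was drawn up with earlier results of these data known, so its share called is no independent evidence. Of 27 matched, 3 were called higher and 6 lower per the authors' deposited table, 33.3% against 9.97% of all genes, and the median of their log2 fold changes was -0.08 against 0.02. The falls were in enzymes of the list and in a receptor, among them Rdh16 (896 normalized reads in Huwe1_LKO and 2578 in WT, log2 fold change -1.52, adjusted p = 2.5e-09), Rdh11 (-1.24), Aldh1a1 (-0.85) and its close copy Aldh1a7 (-0.89), per the authors' deposited table. Rxrg, a retinoid X receptor, had 46.6 normalized reads in Huwe1_LKO and 111 in WT (log2 fold change -1.25, adjusted p = 6.5e-05), while the main liver form Rxra had 7132 and 7000 and did not pass, per the authors' deposited table. Dhrs4 fell by 0.37 on the log2 scale per the authors' deposited table, a call lost when the 2080 most abundant genes were centred at 0 (adjusted p = 0.153). The rises included the carotene cleaving enzyme Bco1 (log2 fold change 0.67) and the retinoic acid receptor Rarg (0.66), per the authors' deposited table. Cyp26a1, a direct target of retinoic acid, had 275 normalized reads in Huwe1_LKO and 320 in WT and did not pass (log2 fold change -0.22, adjusted p = 0.833), and Rarb, another such target, had 84.1 and 57.6 (adjusted p = 0.311), per the authors' deposited table.

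Of 9 matched genes of caveolae, the raft pits, with Fyn among them, 1 rose and 1 fell per the authors' deposited table, 22.2% against 9.97% of all genes called in either direction. All 9 had a mean value of 10 or more. With lower genes removed, 794 of 12309 genes were called higher and 1006 lower, a larger share than 9.97%. Cav2 rose to 65.4 normalized reads in Huwe1_LKO, against 31.5 in WT (log2 fold change 1.05, adjusted p = 0.00485), per the authors' deposited table. Cav1, the main caveolin, fell to 35.4 normalized reads in Huwe1_LKO, against 90.6 in WT (-1.36, adjusted p = 0.0352, and 0.0507 with the 2080 most abundant genes centred at 0), per the authors' deposited table. Fyn, the kinase that binds Gprc5b in fat tissue, had 122 normalized reads in Huwe1_LKO and 116 in WT (adjusted p = 0.937, not passing) per the authors' deposited table.

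Around Clstn3, its synaptic and its lipid droplet partners were taken as separate lists. Of 13 calsyntenins, neurexins, motor and protease partners, 1 was called higher and 0 lower per the authors' deposited table, 7.69% in all and near the 9.97% of all genes, and the median of their log2 fold changes was 0.18. The riser was the kinesin heavy chain Kif5b (0.36, adjusted p = 0.0241 per the authors' deposited table). The neurexin gene Nrxn2 did not pass per the authors' deposited table (log2 fold change 0.54, adjusted p = 0.357). Of 18 matched genes of lipid droplets and fat tissue, 10 were called lower and 0 higher per the authors' deposited table, 55.6% against 5.56% of all genes called lower, and the median log2 fold change was -0.87. That list, like the others, was drawn up with earlier results of these data known and is no independent evidence of its direction. Among its members the droplet fusion proteins Cidea and Cidec had log2 fold changes of -5.03 and -3.13, while Cideb, the CIDE protein of normal hepatocytes, had -0.19 and did not pass (adjusted p = 0.496), per the authors' deposited table. Fitm1 (-2.32), Plin4 (-2.27), Cd36 (-2.24), Pparg (-2.09), Mogat1 (-1.86), Fitm2 (-0.91) and Plin2 (-0.84) fell too, and Bscl2 (-0.35) fell with a call lost when the 2080 most abundant genes were centred at 0 (adjusted p = 0.136), as log2 fold changes per the authors' deposited table. S100b, whose release from adipocytes depends on Clstn3b in mice, had 2.08 normalized reads in Huwe1_LKO and 0.940 in WT per the authors' deposited table (log2 fold change 1.14, adjusted p = 0.210).

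Around Pnldc1, most of the piRNA pathway was barely detected. Of 22 listed genes 14 were matched, 9 of them with a mean value under 10 and 8 under 1, and 1 was called lower and 0 higher per the authors' deposited table, 7.14% against 9.97% of all genes. The one that fell was Tdrkh, the mitochondrial Tudor protein that in mice brings Pnldc1 to piRNA precursors, with 25.6 normalized reads in Huwe1_LKO and 48.7 in WT (a log2 change of -0.93 with an implied standard error of 0.30, adjusted p = 0.0254), per the authors' deposited table. The Argonaute protein gene Piwil2 had 2.28 normalized reads in Huwe1_LKO and 1.77 in WT, and the germ cell helicase Ddx4 had 0.489 and 0.492, per the authors' deposited table. Of 18 genes of poly(A) removal and end trimming, 2 rose and 1 fell per the authors' deposited table, 16.7% against 9.97%. All 18 had a mean value of 10 or more. With lower genes removed, 794 of 12309 genes were called higher and 1006 lower, a larger share than 9.97%, and the list still had 2 and 1. Pan3, a subunit of a deadenylase complex (log2 fold change 0.54, adjusted p = 0.000508), and Cnot3, a subunit of another (0.32, adjusted p = 0.0232), rose and Angel1 fell (-0.61, adjusted p = 0.0415, and 0.0908 with the 2080 most abundant genes centred at 0), per the authors' deposited table. Male germ cell markers, 4 of 8 matched, summed to 104 normalized reads in Huwe1_LKO and 96.4 in WT, mostly from Zbtb16.

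**Figure D4:**
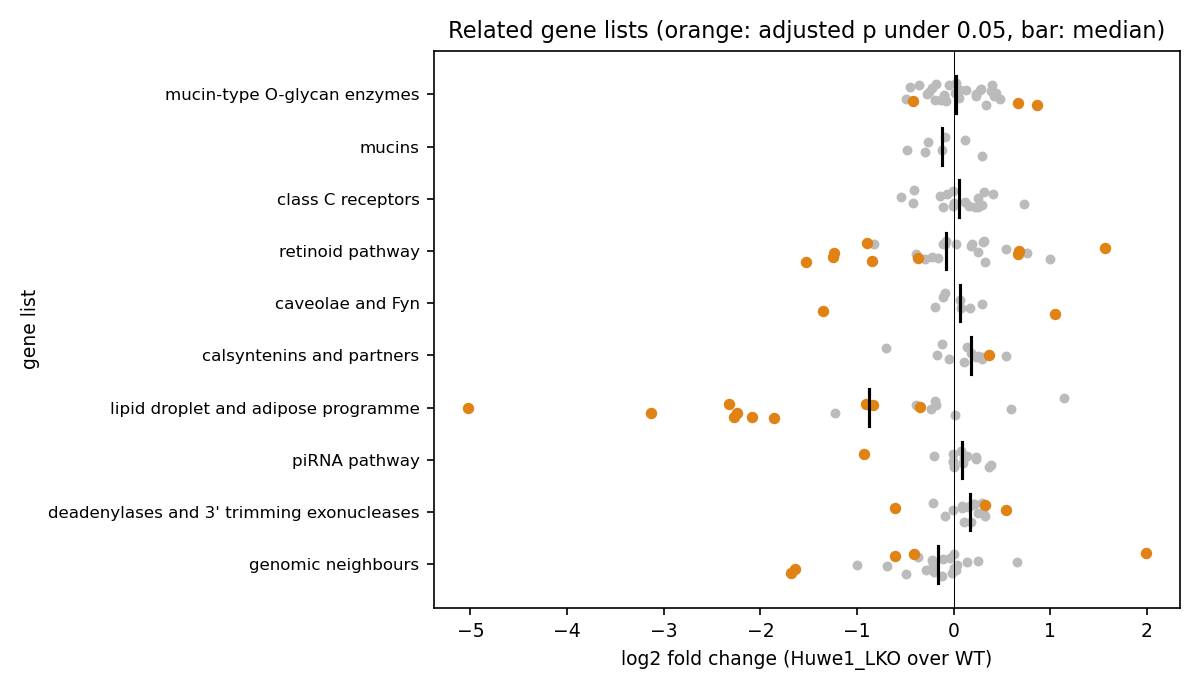
Log2 fold change of Huwe1_LKO over WT for each matched gene of 10 lists related to the 4 genes, from the authors' deposited table, in orange where the adjusted p was under 0.05, with a black bar at the list median. The lipid droplet and adipose list lies lowest, with a median of -0.87, and the retinoid list has orange points on both sides of 0.

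The 3 nearest measured genes on each side of each of the 4 genes gave 24 neighbours, of which 4 were called lower and 1 higher per the authors' deposited table, 20.8% against 9.97% of all genes, and the median of their log2 fold changes was -0.16. A mean value of 10 or more was found for 19 of them. With lower genes removed, 794 of 12309 genes were called higher and 1006 lower, a larger share than 9.97%, and the neighbours had 1 higher and 3 lower. Beside A4gnt, Cldn18, a claudin of stomach and lung that lies 68.4 kb away, had 2.37 normalized reads in Huwe1_LKO and 7.59 in WT (a log2 change of -1.68 with an implied standard error of 0.52, adjusted p = 0.0180), per the authors' deposited table. Dzip1l, the closer gene on that side at 7.13 kb, had 18.5 and 37.1 normalized reads in Huwe1_LKO and WT and did not pass (-0.999, adjusted p = 0.0679), and Dbr1, 6.17 kb away on the other side, had 163 and 165, per the authors' deposited table. The distance to Dbr1 is counted from the RefSeq gene body of A4gnt, which begins upstream of the window shown. Mras, 153 kb away, fell by 0.60 on the log2 scale per the authors' deposited table (adjusted p = 0.0217, and 0.0565 with the 2080 most abundant genes centred at 0). Beside Pnldc1, the receptor gene Mas1, 20.6 kb away, had 4.31 normalized reads in Huwe1_LKO and 13.4 in WT (-1.64, adjusted p = 0.0234), while Mrpl18, 0.765 kb away on the other side, had 886 and 746 and did not pass, per the authors' deposited table. Cldn18 and Mas1 had mean values under 10, and neither was tested once genes of that level were removed. Beside Clstn3, Pex5, the import receptor of peroxisomes at 14.8 kb, fell to 1660 normalized reads in Huwe1_LKO, against 2199 in WT (log2 fold change -0.41, adjusted p = 0.0036), per the authors' deposited table. The complement genes C1rl, C1ra and C1s1 on the other side of Clstn3 had log2 fold changes between -0.03 and 0.14 and did not pass per the authors' deposited table. Beside Gprc5b, Acsm2, 559 kb away, rose to 29.3 normalized reads in Huwe1_LKO, against 7.37 in WT (log2 fold change 1.99, adjusted p = 0.00128), per the authors' deposited table, and the other 5 neighbours did not pass.

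**Figure D5:**
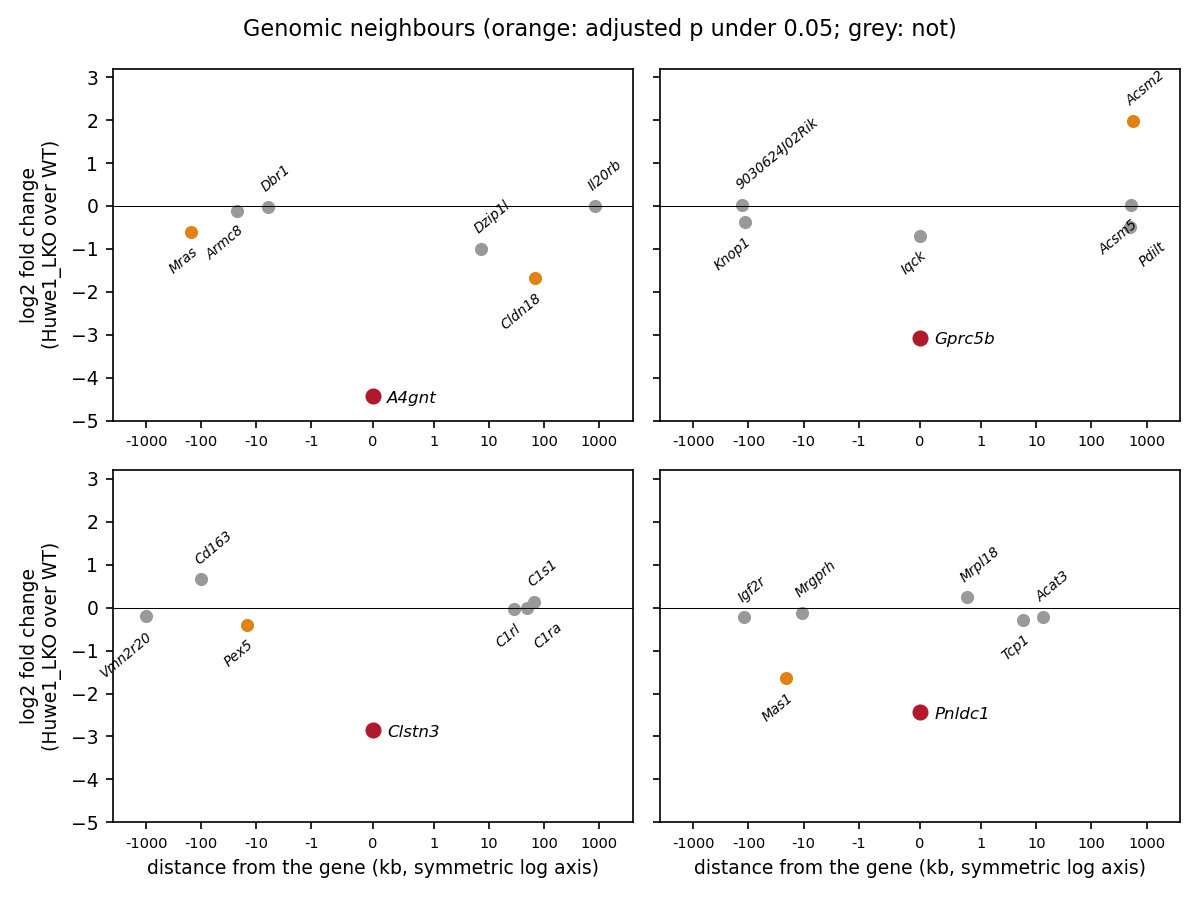
Log2 fold change of Huwe1_LKO over WT against distance in kb (symmetric log axis) for the 3 nearest genes on each side of A4gnt, Gprc5b, Clstn3 and Pnldc1 (red), from the authors' deposited table, in orange where the adjusted p was under 0.05. Cldn18 at -1.68 and Mas1 at -1.64 are the lowest neighbours, and the genes directly beside Gprc5b and Clstn3 lie within 1 log2 unit of 0.

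With a single value per group, likeness could be taken only over the 2 group values, as the Euclidean distance between their log2 values. Nearest to Gprc5b was Pnldc1 (distance 0.46) and then Tox, a nuclear protein best known from T cells, at 0.80. Tox was also nearest to Pnldc1 (0.36), with 32.4 normalized reads in Huwe1_LKO and 125 in WT (log2 fold change -1.95, adjusted p = 3.8e-08), per the authors' deposited table. Mogat1, a monoacylglycerol acyltransferase, came next to Pnldc1 (0.43), with 32.6 normalized reads in Huwe1_LKO and 118 in WT per the authors' deposited table. Nearest to Clstn3 were Mup18 (0.60) and Eno1b (0.71), both of gene families with near-identical copies, so that their values are uncertain. A4gnt had no close match, the nearest being the transporter Slc22a27 at 1.44 and Dntt at 1.76.

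Markers of other cell types were read against the 9.97% of all genes called, 4.41% higher and 5.56% lower, and nothing is drawn from a count of 0 in lists of 3 to 8 matched genes. Per the authors' deposited table, DESeq2 called 0 of 8 matched neuron and glia markers, with 2 at an unadjusted p under 0.05, and their sum was 332 normalized reads in Huwe1_LKO and 271 in WT, mostly Syt1. Of 6 matched adipocyte markers 1 was called higher and 0 lower per the authors' deposited table, with 3 at an unadjusted p under 0.05 in both directions. The fat cell hormone genes Adipoq and Lep had 0.394 and 0.222 normalized reads in Huwe1_LKO and 0.368 and 0.273 in WT per the authors' deposited table. Cfd had 57.8 normalized reads in Huwe1_LKO and 135 in WT (log2 fold change -1.23, adjusted p = 0.171) and Retn had 1.23 and 3.30 (-1.42, adjusted p = 0.0757), neither passing, per the authors' deposited table. The adipocyte markers summed to 1086 normalized reads in Huwe1_LKO and 648 in WT, mostly from Lipe and from Adrb3, which rose (log2 fold change 2.12), and their part in the falls was not tested. Hepatocyte markers were abundant in both groups, with 2 of 8 called higher per the authors' deposited table, Apoa1 (0.52) and Hnf4a (0.37). Of 5 neutrophil markers 2 rose per the authors' deposited table, S100a9 (1.63) and Retnlg (1.58), and Ly6g had 5.02 normalized reads in Huwe1_LKO and 7.52 in WT and did not pass (log2 fold change -0.58, adjusted p = 0.628). The part of neutrophils in the falls was not tested. Of the markers of bile duct, stellate, endothelial, macrophage and lymphoid cells, 6 in each list, 0 were called by DESeq2 per the authors' deposited table, and 1 of them, the bile duct marker Spp1, had an unadjusted p under 0.05. The 4 genes stayed lower with each of the settings tried for calling genes, which says little since they were chosen for large falls. The split of all genes called did not stay the same, with 734 higher and 925 lower per the authors' deposited table, and 1168 higher and 625 lower once the 2080 most abundant genes were centred at 0, so that the higher share was 65.1% and not 44.2%.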

How the data were processed

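RNA of 4 Huwe1_LKO and 4 WT livers was sequenced at BGI Genomics, per the labels' protocols, and samples were grouped by their titles. The genome build was mm10 and the groups were compared by DESeq2, per the submitters' processing notes, with aligner and counter not given in the sources used here. What the authors deposited is a signal normalized for depth, with 1 value for each gene and group, called normalized reads here. Their deposited log2 fold change equals the log2 ratio of both values to within 4.71e-08. A Benjamini-Hochberg adjustment of their deposited p-value over 16640 genes gave their adjusted one to within 1.74e-06. Group values summed to 17533080 for Huwe1_LKO and 17347886 for WT. A total over the livers is the group value times the number of livers. In 707 genes at the level of a single read the deposited log2 fold change had a median size of 0.11, and both group values were above 0, so deposited folds appear shrunken toward 0 and folds of low genes understated. Since the fold equals the ratio of the group values, these values, the shares of WT and the totals may carry the same shrinkage. Values per liver were not analysed here, and the count models and limma fits of the design could not be fitted. No test was run on the 4 genes.

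The standard error is the size of the log2 fold change divided by the normal score of the deposited unadjusted p, which assumes a Wald test. Simulated data checked only the arithmetic of this step, since their p-values were made by a Wald test. They cannot show that the deposited p-values belong to the deposited folds. If those p-values came from folds before shrinkage, the implied standard errors and intervals are too narrow. Per-length levels divide by the deposited length. The 4 genes and all lists were chosen with earlier results of these data known. The genes named are the 4 members, list genes with an adjusted p under 0.05, the closest relatives and partners, the nearest genes by level and the neighbours by rank; others (such as Gabbr2, Cyp26a1, Rarb, the remaining neighbours and markers) were named after their values were seen. Some list genes are not reported here. Of the listed genes 219 were matched by symbol and 34 were not matched. Coordinates are RefSeq's for GRCm38, counted from 1. The scripts ran under Python 3.11.15 with matplotlib 3.10.9, scipy 1.17.1, pandas 2.3.3 and numpy 2.4.6.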

Additional observations from a re-analysis of the deposited data

How the results depend on the processing

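No paired analysis was possible because the table holds 1 value per gene and group, and leaving out single livers was not run for the same reason. The 4 genes kept a log2 fold change below 0 under 2 other centres, a class correction for length and level, and pseudocounts of 1 and 10. That sign was no test, since the genes were chosen for large falls, the centres lay at 0.01 and -0.08, and a pseudocount cannot reverse a sign. With a pseudocount of 10, A4gnt moved to -2.99 and Gprc5b to -2.61, and 18 other values of the 4 genes moved by less than the implied standard error. All genes called numbered 414 higher and 561 lower at an adjusted p under 0.01, 251 and 201 at 2-fold or more, and 1168 higher with the 2080 most abundant genes centred at 0. At an adjusted p under 0.01, 0 glycan enzymes were higher and 0 lower, 0 caveolar genes lower, 0 Clstn3 partners higher, 0 piRNA genes lower, 1 poly(A) enzyme higher and 0 lower, and 1 genomic neighbour lower. At 2-fold or more, 0 glycan enzymes were higher and 0 lower, 1 retinoid gene was higher and 3 lower, 0 Clstn3 partners were higher, 0 piRNA genes lower, 0 poly(A) enzymes higher and 0 lower, and 2 neighbours lower. With the most abundant eighth set to 0, 0 glycan enzymes and 0 caveolar genes were lower, and 4 poly(A) enzymes were higher and 0 lower. Removing genes with a mean value under 10 left the other counts within 1.5 times. The cause was not tested where a count moved. Precision is limited most for A4gnt in Huwe1_LKO, whose group value scales to 20.1 normalized reads over 4 livers.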
